A study of Mus musculus with 43 samples.

Results

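The corpus epididymis of Rnase9-12 knockout (KO) and wild type (WT) mice was compared by small RNA sequencing. The comparison used 5 of the 43 libraries in the series, chosen by their section and genotype labels: WT corpus replicates 1, 2 and 3 and KO corpus replicates 1 and 2, out of 17 libraries of epididymal tissue. All mice were FVB animals aged 8 to 12 weeks. WT mice carried the intact locus, and KO mice were homozygous for a CRISPR/Cas9 deletion of the chromosome 14 cluster that holds Rnase9, Rnase10, Rnase11 and Rnase12. Tissue RNA was treated with polynucleotide kinase (PNK), which repairs RNA ends left by cleavage, and sequenced by ARM-seq, a method made for tRNA-derived RNAs, from 1 μg of total RNA a library. The labels and methods did not state whether a tissue library came from 1 animal, so p-values measured the spread between libraries, which may in part be technical.

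The epididymis matures sperm as they pass from caput through corpus to cauda. The 4 deleted genes encode secreted proteins of the RNase A family that the epididymal epithelium makes. Small RNAs of this tissue include tRNA-derived fragments (tRFs), rRNA-derived small RNAs (rsRNAs), Y RNA, snRNA and snoRNA fragments, and microRNAs (miRNAs), the guides of Argonaute proteins that repress mRNAs through their seed bases. piRNAs are the guides of PIWI proteins in germ cells. The table also listed genomic loci named for them, most of which lie in genes or intervals that yield other RNA as well. In bulk tissue, fewer cells of a type and less RNA per cell cannot be told apart.

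Library totals were 44999325 to 162251168 counts in WT and 91088031 to 94668105 counts in KO. Sequences with several best matches had been counted at each match, so totals exceeded reads, and 5S repeat entries held 75.7% to 79.2% of all counts in the 5 libraries. One count was worth 0.00443 to 0.0232 CPM, the counts scaled to library totals and TMM factors. The Rnase9-12 mRNAs were not among the 4890 rows, so the genotype labels could not be checked here. Marker miRNAs were read for cell types, and the lists held none for an epididymal segment. The 5 epithelial miR-200 family genes summed to 16.3 to 25.9 CPM in WT and 10.5 to 10.7 CPM in KO. The smooth muscle pair Mir143 and Mir145a summed to 44.2 to 87.5 CPM in WT and 24.3 to 29.5 CPM in KO. For 10 listed genes of testis germ cells and sperm the sums were 0.209 to 0.509 and 0.476 to 0.531 CPM. Leukocyte and red cell miRNAs summed to at most 0.151 and 0.108 CPM in any library, and the Mir9 genes of neurons had 0.0221 CPM or less.

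The miRNAs below are shown because the results turn on them. They are genes called lower in KO corpus by DESeq2, together with a relative that shares a seed, and let-7a and miR-10a as genes with smaller differences. Capitals mark the seed, bases 2 to 8. The sequences are RefSeq's, with positions in GRCm38.p6, the build of the mm10 annotation used for the counts. Counts were made per miRNA gene, so the arms were not separated, and the arm shown is the commonly used guide.
miR-127-3p (chr12:109592888-109592909, plus strand): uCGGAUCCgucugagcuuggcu
miR-205-5p (chr1:193507503-193507524, minus strand): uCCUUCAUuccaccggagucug
miR-22-3p (chr11:75463772-75463793, plus strand): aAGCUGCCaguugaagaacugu
miR-125a-5p (chr17:17830817-17830840, plus strand): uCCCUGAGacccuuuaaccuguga
miR-125b-5p (Mir125b-1, chr9:41581940-41581961, plus strand): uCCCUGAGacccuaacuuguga
miR-99a-5p (chr16:77598940-77598961, plus strand): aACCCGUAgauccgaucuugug
miR-100-5p (chr9:41531437-41531458, plus strand): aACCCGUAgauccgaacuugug
miR-30c-5p (Mir30c-2, chr1:23291714-23291736, plus strand): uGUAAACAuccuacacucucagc
miR-26a-5p (Mir26a-2, chr10:126995543-126995564, plus strand): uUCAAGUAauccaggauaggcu
let-7a-5p (Mirlet7a-1, chr13:48538239-48538260, minus strand): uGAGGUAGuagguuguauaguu
miR-10a-5p (chr11:96317186-96317208, plus strand): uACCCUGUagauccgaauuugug
miR-125a and miR-125b share the seed CCCUGAG, and miR-99a and miR-100 share ACCCGUA. By GENCODE, Mir26a-2 lies in an intron of the protein-coding gene Ctdsp2, Mir99a in an intron of Mir99ahg, Mir125b-1 and Mir100 in introns of 3110039I08Rik, Mir205 in an exon of 4631405K08Rik and Mir22 in an exon of Mir22hg, whereas Mir127 and Mir10a lie between annotated genes on their strand.

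No single small RNA passed the test in KO corpus. Of 3488 RNAs tested with edgeR's quasi-likelihood test, 0 had an adjusted p below 0.05 and a log2 change over 1 (0.0%), and the smallest adjusted p was 0.238. At an unadjusted p below 0.05, 252 RNAs were lower in KO (7.22% of those tested) and 27 were higher (0.774%). DESeq2, the tool of the study, called 24 RNAs in its fit of the same 17 libraries, 0.854% of the 2810 with an adjusted p, and 24 of the 24 were lower in KO: 12 miRNA genes, 9 28S repeat entries and 3 piRNA locus entries. DESeq2 on the 5 corpus libraries alone called 0 and had 233 lower and 29 higher at an unadjusted p below 0.05. Without KO replicate 1 the lower count was 118 and without KO replicate 2 it was 159. The split also depended on scaling. By library size alone 340 were lower and 2 higher with a median over all RNAs of -0.38, and with factors computed from the miRNA genes 18 were lower and 676 higher with a median of 0.83, beside -0.04 here.

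The RNAs with lower values in KO lay in a few classes. The median log2 fold change was -0.98 over 236 miRNA entries, -1.11 over 361 piRNA locus entries, -1.18 over 165 28S repeat entries and -0.998 over 31 18S repeat entries, beside -0.04 over all RNAs tested. These 4 classes, grouped after their values had been seen, held 230 of the 252 RNAs that were lower at an unadjusted p below 0.05. By class that was 28.8%, 27.7%, 33.3% and 22.6% of the entries tested, beside 7.22% of all RNAs. The piRNA count rested largely on WT replicate 1, as described below. The same medians were 0.03 for tRF_5', -0.19 for tRF_3', 0.14 for tRF_other, 0.06 for full-length tRNA, 0.28 for 5S repeats, 0.09 for C/D snoRNA, 0.12 for H/ACA snoRNA or scaRNA and -0.02 for snRNA.

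**Figure D1:**
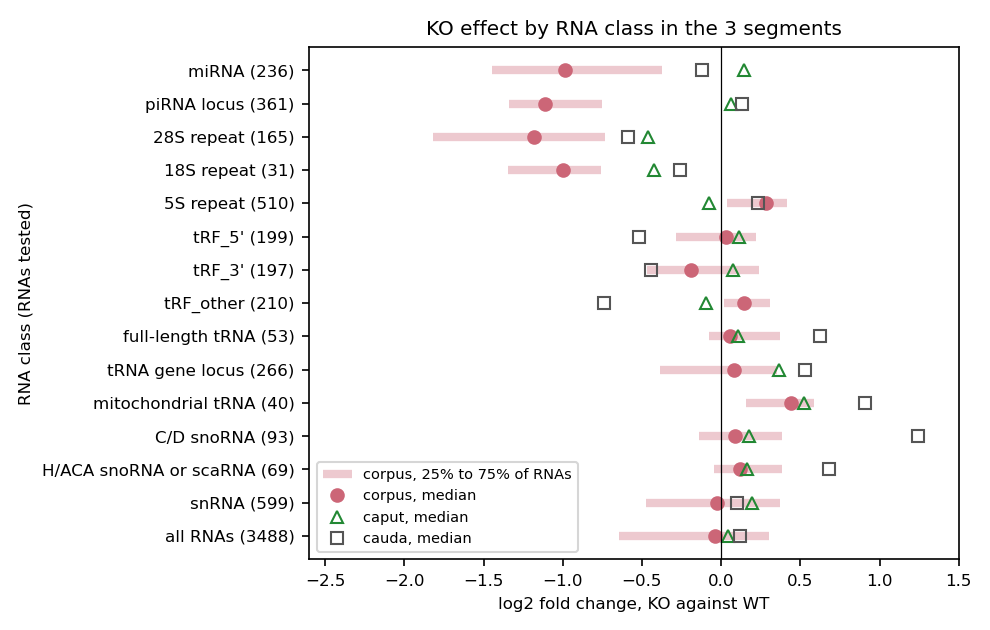
Median log2 fold change of KO against WT (x axis) for each RNA class (y axis, with the number of RNAs tested) in corpus (circles, with bars from the 25% to the 75% quantile of the RNAs), caput (triangles) and cauda (squares). miRNA, piRNA locus, 28S and 18S entries had corpus medians of -0.98, -1.11, -1.18 and -0.998, to the left of their caput and cauda medians, while tRF, snoRNA and snRNA medians in corpus lay near 0.

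Among miRNAs, values in KO corpus lay below WT for most genes. Of 236 tested entries, 194 had a negative log2 change (52.8% of all RNAs did), 68 were lower at an unadjusted p below 0.05 and 0 were higher (28.8%, beside 7.22% of all RNAs), and in 106 both KO libraries lay below all WT libraries (15.2% of all RNAs; the reverse held for 8, and for 11.8% of all RNAs). Without KO replicate 1, 40 of 254 were lower. When the scaling factors came from the miRNA genes themselves their median was -0.07, and Mir10a and Mir10b had positive log2 changes. The median log2 CPM of the entries was -1.52, -1.09 and -1.29 in WT and -2.40 and -2.14 in KO, so the groups did not overlap. These were sparse RNAs: miRNA entries together took 0.119%, 0.121% and 0.119% of all counts in WT and 0.126% and 0.128% in KO. By this share KO lay above WT (exact permutation test p = 0.2, adjusted p = 0.543), and its largest parts were entries that share sequence with other RNAs, described below.

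Mir127, a miRNA of an imprinted cluster on chromosome 12, had the smallest p of all RNAs. It had 0.341, 0.488 and 0.567 CPM in WT and 0.115 and 0.0775 CPM in KO, from 19, 21 and 128 counts and 8 and 7 counts. Both KO libraries lay under all WT libraries. Its log2 change was -2.30 ± 0.43 (SE; adjusted p = 0.238 by edgeR). Here and below the SE is approximate: the size of the log2 change divided by the square root of the F statistic of edgeR's test. Mir205, an miRNA of stratified and glandular epithelia, had 0.735, 2.88 and 2.22 CPM in WT and 0.330 and 0.409 CPM in KO, a log2 change of -2.39 ± 0.54 (adjusted p = 0.381). WT replicate 1 had the lowest WT value and still lay above both KO libraries. Mir22, which is broadly expressed, had 0.269, 0.627 and 0.434 CPM in WT and 0.101 and 0.0885 CPM in KO (log2 change -2.21 ± 0.54, adjusted p = 0.381).

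The genes that share the CCCUGAG seed had lower values in KO as well. Mir125a had 0.986, 1.46 and 1.20 CPM in WT and 0.330 and 0.354 CPM in KO, a log2 change of -1.82 ± 0.45. Mir125b-1 had 1.68, 4.78 and 3.14 CPM in WT and 0.847 and 0.808 CPM in KO, a log2 change of -1.95 ± 0.50, and Mir125b-2, whose mature sequence reads cannot be assigned to 1 copy, -1.98 ± 0.49. The adjusted p was 0.381 for each of these genes in edgeR, and DESeq2 gave 0.0118 for Mir125b-1 and 0.00851 for Mir125b-2. WT replicate 2 was the highest library for all of them. Over the 8 genes of the miR-10, miR-99, miR-100 and miR-125 list, whose members lie in Hox clusters or beside let-7 genes, 6 were lower at an unadjusted p below 0.05 and 0 were higher, in all 8 both KO libraries lay below WT, and the median log2 change was -1.38 (7.22% of all RNAs were lower at that threshold, and in 15.2% both KO libraries lay below WT).

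Mir26a-2, whose family is transcribed from introns of phosphatase genes, had 5.77, 8.82 and 6.93 CPM in WT and 2.57 and 2.30 CPM in KO (log2 change -1.56 ± 0.46, adjusted p = 0.418). Mir99a had 2.80, 7.80 and 4.67 CPM in WT and 1.95 and 1.62 CPM in KO (-1.51 ± 0.44, adjusted p = 0.418). All 6 genes of the miR-30 family (median -1.43) were lower at an unadjusted p below 0.05 (28.8% of miRNA entries, 7.22% of all RNAs). Its copies Mir30c-1 and Mir30c-2 had log2 changes of -1.67 ± 0.44 and -1.67 ± 0.43, and Mir30c-2 had 0.878, 1.51 and 1.43 CPM in WT and 0.402 and 0.398 CPM in KO.

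Among the abundant miRNAs, the differences varied in size. Mir143, the smooth muscle miRNA, had 41.5, 80.02 and 47.5 CPM in WT and 22.7 and 26.8 CPM in KO, a log2 change of -1.19 ± 0.40 (adjusted p = 0.437). Mir10a had 35.1, 42.0 and 30.7 CPM in WT and 24.7 and 20.4 CPM in KO (-0.67 ± 0.40, adjusted p = 0.675), Mir10b -0.77 ± 0.38 (adjusted p = 0.625) and Mir148a -1.16 ± 0.60 (adjusted p = 0.629). The let-7 list, a family that restrains proliferation, had a median of -0.49. Of its 12 genes 1, Mirlet7e, was lower at an unadjusted p below 0.05 (7.22% of all RNAs, 28.8% of miRNA entries). Mirlet7a-1 had 3.62, 5.15 and 4.11 CPM in WT and 3.96 and 3.05 CPM in KO, so the groups overlapped.

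**Figure D2:**
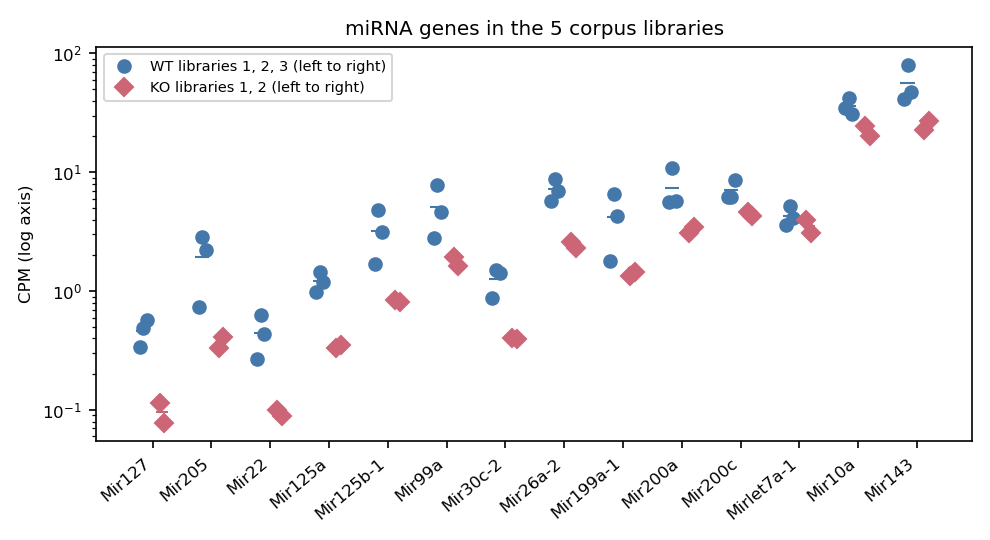
CPM (log y axis) of 14 miRNA genes in the 3 WT (circles) and 2 KO (diamonds) corpus libraries, with bars at the group means. Mir127, Mir205, Mir22, Mir125a and Mir125b-1 had both KO libraries well below all WT libraries, and Mirlet7a-1 overlapped.

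Marker miRNAs of several cell types had lower values in KO, as did miRNA entries in general. Of the miRNA entries tested, 28.8% were lower at an unadjusted p below 0.05 (7.22% of all RNAs), with a median of -0.98. All 5 epithelial genes had negative log2 changes (median -0.95, 2 at an unadjusted p below 0.05): Mir200a had 5.57, 10.8 and 5.73 CPM in WT and 3.10 and 3.45 CPM in KO, and Mir200c, the other large member, 6.24, 6.22 and 8.67 CPM in WT and 4.64 and 4.33 CPM in KO. The fibroblast and mesenchyme genes had a median of -1.58 with 3 of 4 lower at an unadjusted p below 0.05, and Mir199a-1 had 1.81, 6.57 and 4.31 CPM in WT and 1.35 and 1.44 CPM in KO. Both smooth muscle genes were lower at that threshold (median -1.28). The endothelial gene Mir126a had 1.16, 2.28 and 1.26 CPM in WT and 0.689 and 0.753 CPM in KO, and the 4 tested genes of skeletal and cardiac muscle had a median of -1.51 with 0 at the threshold. The 1 tested leukocyte gene, Mir142, had a log2 change of -0.77, and the red cell gene Mir486 had 3, 2 and 5 counts in WT and 0 in both KO libraries. Of the 10 listed germ cell genes 2 were tested, Mir34c and Mir881, with log2 changes of 0.37 and 0.34. Their groups overlapped (unadjusted p = 0.605 and 0.743 by edgeR). Mir34c had at most 0.166 CPM and Mir881 at most 0.215 CPM in any corpus library, so no contrast with the other cell types was drawn. Of the miR-17-92 cluster 1 of 4 tested genes, Mir17, was lower at an unadjusted p below 0.05, and Mir204 had a log2 change of -0.62. The part of cell composition in these values was not tested.

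Entries annotated as miRNA were also divided by shared sequence. Hairpins were compared by runs of 20 bases with GENCODE transcripts of protein-coding genes and of short non-coding RNA types. These types were snoRNA, scaRNA, snRNA, rRNA, mitochondrial rRNA and tRNA, ribozyme and misc_RNA. Long non-coding RNAs, some of which hold miRNA genes, and the other miRNA entries were not compared. The 134 tested genes with a listed mature sequence and no such run had a median of -1.04. At an unadjusted p below 0.05, 47 of them were lower (35.1%) and 0 were higher, beside 7.22% and 0.774% of all RNAs. The 36 entries that share a run with another non-coding RNA had a median of 0.11, with 0 at the threshold. The entries with the highest CPM of the class belonged to this group: Gm47299 (chr12:69361179-69361258), which shares 77 of its 80 bases with the signal recognition particle RNA Rn7s1, had 218, 124 and 146 CPM in WT and 272 and 240 CPM in KO (log2 change 0.65 ± 0.42, adjusted p = 0.716). The similar entries Gm47295, Gm47287 and Gm47305 had log2 changes of 0.65, 0.88 and 0.89, and Gm47301, which shares a run with a 5S rRNA gene, 0.60 ± 1.40. The 44 entries that share a run with an mRNA had a median of -1.21, with 14 lower (31.8%) and 0 higher at the threshold. One of them, Gm47302 (chr1:45311673-45311813), lies whole within the sequence of the collagen mRNA Col3a1, over all 141 bases, and had 3.39, 2.09 and 3.58 CPM in WT and 1.15 and 0.587 CPM in KO (log2 change -1.81 ± 0.55, adjusted p = 0.418).

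piRNA locus entries had lower medians in KO corpus as well, but WT replicate 1 carried much of the difference. Of 361 tested entries, 354 had a negative log2 change (52.8% of all RNAs), and 100 were lower at an unadjusted p below 0.05, while 0 were higher (7.22% and 0.774% of all RNAs). The median log2 CPM was -0.85, -2.47 and -1.69 in WT and -2.40 and -2.36 in KO, so WT replicate 2 lay just below both KO libraries. WT replicate 1 was the highest WT library for 336 of the 361 entries. Without it the median log2 change was -0.49 and 21 of 359 entries were lower at the threshold. Without WT replicate 2 they were -1.42 and 197 of 361, and without KO replicate 1 or KO replicate 2 the counts were 27 and 48 of 366.

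Entries named for genes, whose rows of 1 gene overlap and share reads, had a median of -1.15 over 232 rows, and those named for chromosome bands -0.82 over 129. The gene-named rows came from 110 genes. In 108 of these genes every row had a negative log2 change, and 48 had a row that was lower at an unadjusted p below 0.05. Of the 232 rows, 230 had a negative log2 change and 89 (38.4%) were lower at that threshold. Over all RNAs these shares were 52.8% and 7.22%. Without WT replicate 1, 15 of the 232 rows were lower and their median was -0.50. The rows named for Lpp, an adhesion-site protein gene, averaged 18.7, 5.07 and 6.55 CPM in WT and 3.73 and 4.23 CPM in KO, and those for Cbx5, which encodes the heterochromatin protein HP1 alpha, 8.80, 2.77 and 3.69 CPM in WT and 1.97 and 2.33 CPM in KO. In both, WT replicate 1 stood above the other WT libraries. Among rows whose groups did not overlap, pi-Tmem194.1 had the smallest p, with 15, 6 and 15 counts in WT and 1 and 2 counts in KO (log2 change -2.90 ± 0.83, adjusted p = 0.418).

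The Ctdsp2 rows did not share that pattern. pi-Ctdsp2.2 had 7.51, 9.19 and 7.77 CPM in WT and 3.06 and 2.72 CPM in KO (log2 change -1.50 ± 0.44, adjusted p = 0.418), and its 3 rows were the piRNA entries that DESeq2 called. Mir26a-2 lies within this gene, and the 2 entries tracked each other: pi-Ctdsp2.2 had 419, 396 and 1755 counts in WT and 213 and 246 counts in KO, beside 322, 380 and 1566 and 179 and 208 for Mir26a-2. Of the 114 genes for which piRNA entries were named, 105 were found in the annotation by that symbol and 10 held a miRNA gene on the same strand.

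**Figure D3:**
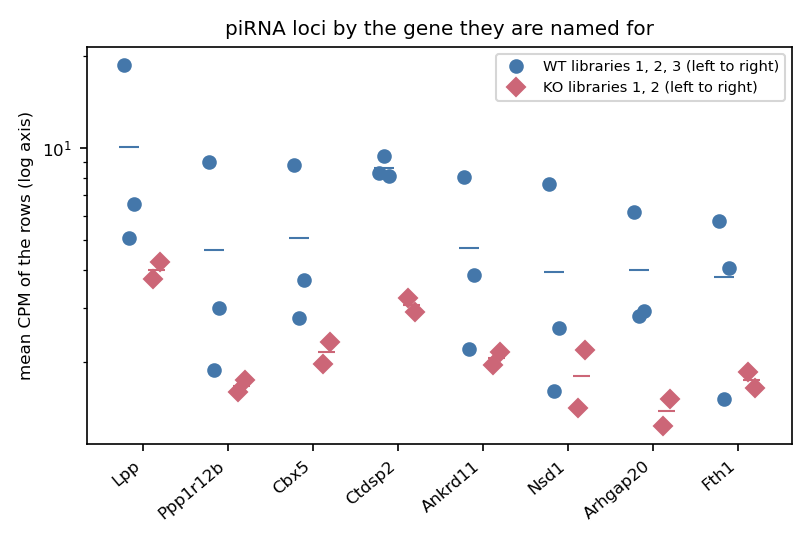
Mean CPM (log y axis) of the tested piRNA locus rows of 8 genes in the 3 WT (circles) and 2 KO (diamonds) corpus libraries, with bars at the group means. WT replicate 1, the leftmost circle, stood highest for all genes shown but Ctdsp2.

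Among rRNA-derived RNAs, copies of 28S and 18S sequence spread over the genome (repeat entries) had lower values in KO. The nuclear rRNA sequences themselves took 7.15%, 5.60% and 5.23% of all counts in WT and 4.97% and 4.75% in KO. 28S repeats took 1.12%, 1.39% and 1.77% of all counts in WT and 0.647% and 0.696% in KO, and 18S repeats 0.079%, 0.107% and 0.171% in WT and 0.0474% and 0.0636% in KO. The groups did not overlap for any of these 3 shares, and for each the exact permutation test gave p = 0.2, the smallest that 3 against 2 libraries allow (adjusted p = 0.543 over 19 classes). Of 165 tested 28S repeats, 55 were lower at an unadjusted p below 0.05 and 0 were higher, and of 31 18S repeats 7 and 0 (7.22% and 0.774% of all RNAs). The 18S count was 0 without KO replicate 1, 4 without KO replicate 2, and 3 without WT replicate 2 or WT replicate 3. The abundant entry rmsk_28S_836 had 2597, 541 and 3295 CPM in WT and 315 and 374 CPM in KO (log2 change -2.64 ± 0.68, adjusted p = 0.381).

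The 28S repeats that DESeq2 called showed opposite orders of the WT libraries. rmsk_28S_836, rmsk_28S_108 and rmsk_28S_475 were high in WT replicates 1 and 3: rmsk_28S_108 had 338, 142 and 388 CPM in WT and 62.1 and 102 CPM in KO (log2 change -1.82 ± 0.45). By contrast, 5 of the 9 had over 3 times the mean of the other WT libraries in WT replicate 2, such as rmsk_28S_140, with 14.1, 135 and 19.8 CPM in WT and 8.93 and 6.43 CPM in KO (-2.87 ± 0.75). Without WT replicate 2 its log2 change was -1.14, and that of rmsk_28S_40 went from -3.24 to -0.60. Over all 28S repeats the median was -0.78 without that library and 27 of 165 were lower at the threshold. Leaving out KO replicate 1 or 2 also gave 27. Among 28S repeats whose groups did not overlap, rmsk_28S_1096 had the smallest p (0.645, 0.418 and 0.757 CPM in WT and 0.144 and 0.210 CPM in KO; log2 change -1.78 ± 0.44), and of the 18S repeats rmsk_18S_386 did, with -1.64 ± 0.56. The abundant rmsk_18S_472 had 369, 454 and 553 CPM in WT and 182 and 181 CPM in KO (-1.34 ± 0.56, adjusted p = 0.580).

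The 28S rRNA sequence 28S_rRNA_1, the large subunit RNA of the ribosome, had 15986, 12491 and 7857 CPM in WT and 11011 and 7970 CPM in KO, so the groups overlapped (log2 change -0.35 ± 0.47, adjusted p = 0.880). The 18S rRNA had 17976, 6624 and 4809 CPM in WT and 6506 and 5848 CPM in KO. Its log2 change of -0.67 ± 0.53 rested on WT replicate 1 and was 0.11 without it. The 5.8S rRNA had 0.14 ± 0.43 and the 5S rRNA 0.34 ± 0.49. 5S repeats had a median of 0.28, with 3 of 510 higher and 1 lower at an unadjusted p below 0.05, and in 162 both KO libraries lay above WT (11.8% of all RNAs). The 5S repeats with the smallest p had few counts: rmsk_5S_1172 had 11, 7 and 33 counts in WT and 24 and 50 in KO (1.44 ± 0.51), and rmsk_5S_594 had -1.71 ± 0.67. The mitochondrial large and small rRNAs had 0.44 ± 0.48 and 0.15 ± 0.50.

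**Figure D4:**
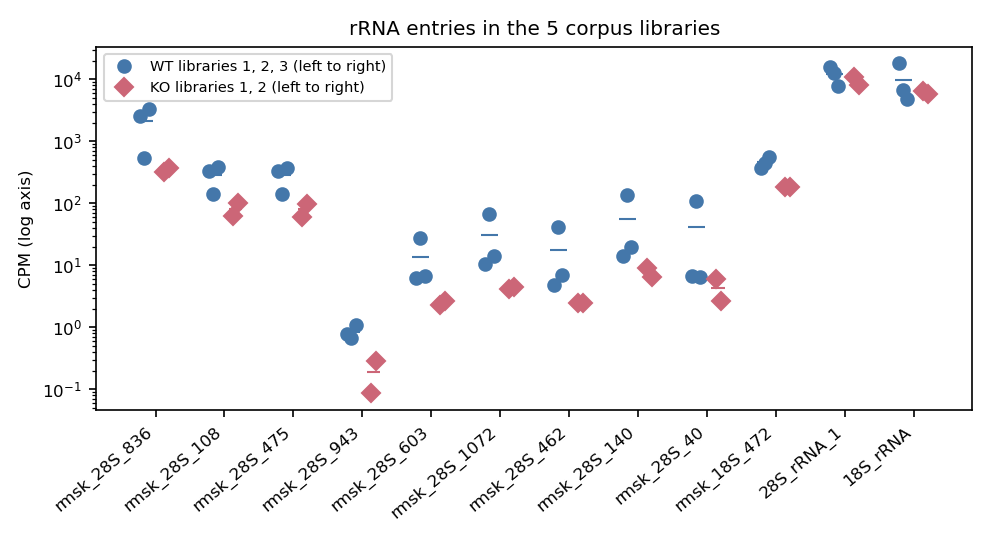
CPM (log y axis) of the 9 28S repeat entries that DESeq2 called, 1 18S repeat and the 28S and 18S rRNA sequences in the 3 WT (circles) and 2 KO (diamonds) corpus libraries, with bars at the group means. rmsk_28S_140, rmsk_28S_1072, rmsk_28S_462, rmsk_28S_603 and rmsk_28S_40 were highest in WT replicate 2, the middle circle, and the rRNA sequences overlapped between groups.

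tRFs, fragments cut from mature tRNAs, did not pass the test in KO corpus in any of the 182 sums by anticodon and fragment type. At an unadjusted p below 0.05, 0.0% of the sums were called, 0 lower and 0 higher, whereas DESeq2 had 1 of each. tRF_5' is the fragment from the start of the tRNA, tRF_3' that from its end, and tRF_other any other piece. The Gly-GCC tRF_5' sum, a fragment abundant in sperm, was 1131, 625 and 2697 CPM in WT and 554 and 434 CPM in KO. Both KO libraries lay below WT, but WT replicates ranged over more than the difference from KO (log2 change -1.59 ± 0.85, adjusted p = 0.562). All tRF_5' entries together took 0.276%, 0.359% and 0.833% of all counts in WT corpus and 0.262% and 0.268% in KO corpus. These shares did not overlap (exact permutation test p = 0.2, adjusted p = 0.543). With TMM-scaled totals they did, at 0.335%, 0.375% and 0.599% in WT and 0.342% and 0.281% in KO. WT corpus replicate 3 was the highest library, and replicate 3 was also the highest in each caput and cauda group. The KO corpus libraries analysed here were replicates 1 and 2. Fitting the replicate number as a block over all tissue libraries gave 5 tRF_5' entries lower and 15 higher at an unadjusted p below 0.05. Without the block there were 2 and 0. For tRF_3' entries the counts were 3 and 13 with the block and 0 and 0 without it. In the corpus libraries alone, the block gave 3 and 16 for tRF_5' and 6 and 0 for tRF_3'. Without it these were 5 and 0 and 6 and 1. Glu-TTC tRF_5' was 58.5, 38.8 and 143 CPM in WT and 37.9 and 29.9 CPM in KO (-1.24 ± 0.69, adjusted p = 0.580), and Gly-CCC tRF_5' 9.18, 8.84 and 26.1 CPM in WT and 6.44 and 7.48 CPM in KO (-1.08 ± 0.76, adjusted p = 0.714).

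The Val-CAC, Val-AAC and Gln-TTG tRF_5' sums overlapped between groups, with log2 changes of -0.07 ± 0.38, -0.07 ± 0.39 and 0.08 ± 0.48. For these 6 anticodons tRF_3' sums had log2 changes from -0.69 for Glu-TTC to 0.17 for Gln-TTG. Over the 50 tRF_3' sums tested, 40 were negative, with a median of -0.36, and in 23 both KO libraries lay below WT (15.2% of all single RNAs). tRF_other sums had a median of 0.02 and the full-length tRNA sums also 0.02. The tRF_5' entries with the smallest p were 2 near-identical Gly-CCC tRNAs, of which tRNA-Gly-CCC-4 had 44, 14 and 310 counts in WT and 13 and 20 counts in KO (log2 change -2.05 ± 0.71, adjusted p = 0.469). Among tRF_3' entries without overlap, tRNA-Val-AAC-3 had 242, 238 and 1438 counts in WT and 237 and 186 in KO (-0.99 ± 0.48), and tRNA-Arg-TCT-4 had 2 to 32 counts in WT and 0 and 2 in KO. Full-length tRNA-Arg-CCT-3 had 3, 1 and 3 counts in WT and 15 and 7 in KO (2.50 ± 0.98, adjusted p = 0.544), and tRNA-Ser-GCT-4 had 1.72 ± 0.99.

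Of the 27 RNAs higher at an unadjusted p below 0.05, 19 were tRF_other entries of Cys-GCA, with log2 changes from 0.83 to 1.09. The count depended on which libraries were kept: of all tRF_other entries 20 were higher at that threshold, against 0 without KO replicate 1, KO replicate 2 or WT replicate 3 and 1 without WT replicate 1, and 0 with a minimum count of 50. These copies share reads and are no independent observations. tRNA-Cys-GCA-24 had 48.1, 52.9 and 36.1 CPM in WT and 82.6 and 107 CPM in KO (log2 change 1.05 ± 0.44, adjusted p = 0.581). The sum of Cys-GCA tRF_other was 1398, 1508 and 1032 CPM in WT and 2218 and 2443.5 CPM in KO, above all WT libraries (log2 change 0.83 ± 0.44, adjusted p = 0.556). Cys-GCA tRF_5' had 0.22 ± 0.56 and Cys-GCA tRF_3' 0.27 ± 0.41. Cys-GCA was described after its values had been seen.

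**Figure D5:**
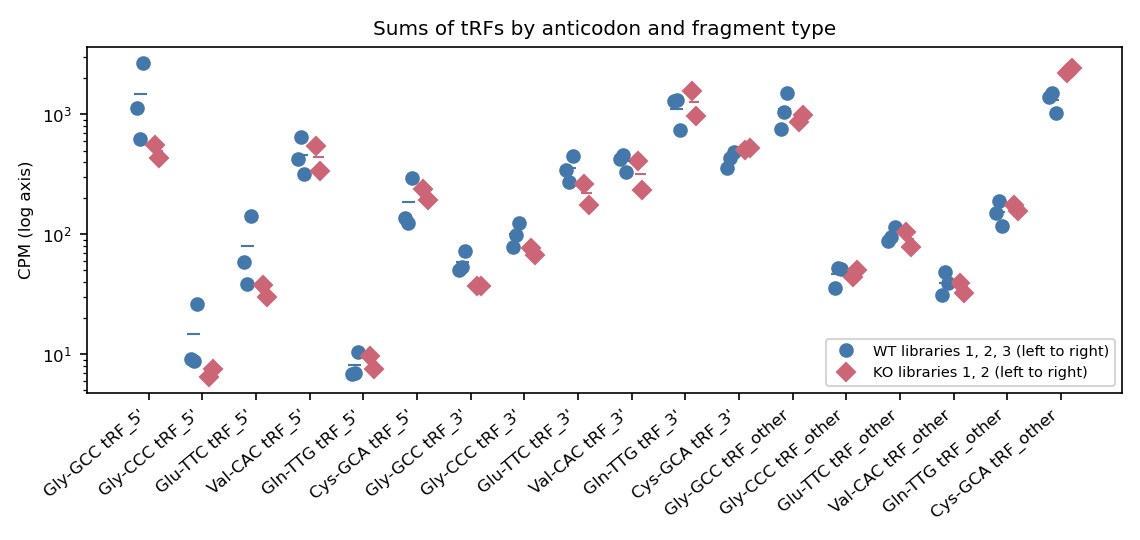
CPM (log y axis) of the sums of tRF_5', tRF_3' and tRF_other for 6 anticodons in the 3 WT (circles) and 2 KO (diamonds) corpus libraries, with bars at the group means. Gly-GCC tRF_5' spread from 625 to 2697 CPM in WT, and Cys-GCA tRF_other lay higher in both KO libraries.

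Y RNAs, snRNAs and snoRNAs did not pass the test. Rny1, a Y RNA bound by Ro60, had 101, 73.7 and 105 CPM in WT and 145 and 136 CPM in KO (log2 change 0.59 ± 0.37, adjusted p = 0.700), and Rny3 had 0.02 ± 0.42. Rn7sk, the RNA that holds P-TEFb inactive, had 673, 313 and 233 CPM in WT and 640 and 462 CPM in KO (0.44 ± 0.52). Of 599 snRNA entries 10 were lower at an unadjusted p below 0.05 and 2 were higher. These were 1.67% and 0.334%, below the 7.22% and 0.774% of all RNAs. Of the 93 C/D snoRNAs 1 was lower (1.08%), Snord34. It had 0.806, 0.464 and 0.956 CPM in WT and 0.345 and 0.210 CPM in KO (-1.45 ± 0.62, adjusted p = 0.581). Snord45b had -0.98 ± 0.48, and the snRNA entries with the smallest p were Gm22350, with 11, 13 and 221 counts in WT and 8 and 16 in KO (-1.81 ± 0.65), and Gm23515, with 1 count in each KO library. Of the other small RNAs, Gm27694 had -1.85 ± 0.88, and Gm27533 had 13, 5 and 8 counts in WT and 2 and 0 in KO. Of 69 H/ACA snoRNAs or scaRNAs 0 reached the threshold, and Gm22009 and Snora5c had the smallest p, with log2 changes of -0.81 ± 0.39 and -0.68 ± 0.39.

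The difference between KO and WT was set against that of the other segments, each with 3 WT and 3 KO libraries. No RNA passed the test of the difference of KO effects: 0 of 3488 (0.0%) between corpus and cauda, with a smallest adjusted p of 0.616, and 0 (0.0%) between corpus and caput, with 0.999. DESeq2 also called 0 in both. At an unadjusted p below 0.05, 258 RNAs differed between corpus and cauda (7.4%), 135 with the lower log2 change in corpus (3.87%) and 123 with the higher one (3.53%). Between corpus and caput 134 differed (3.84%), 131 with the lower log2 change in corpus (3.76%) and 3 with the higher one (0.086%). WT caput replicate 3 carries the section entry Cauda although its title reads caput, and without it the corpus to caput counts were 166 and 51. Without KO corpus replicate 1 they were 45 and 5, and without KO corpus replicate 2, 71 and 4. The lower counts against cauda were 64 and 70 without these libraries, 70 without WT corpus replicate 1 and 246 without WT corpus replicate 2.

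By class, miRNA and piRNA entries had lower medians in corpus than in both other segments. The miRNA median was -0.98 in corpus, 0.15 in caput and -0.12 in cauda. The 131 RNAs with a lower log2 change in corpus than in caput (3.76% of all RNAs) held 40 of the 236 miRNA entries. They also held 70 of the 361 piRNA loci. The piRNA locus medians were -1.11, 0.06 and 0.13. Without WT corpus replicate 1 the corpus median was -0.49 for piRNA loci and -1.03 for miRNA entries, so that library carried much of the piRNA difference. For 28S repeats all 3 medians were negative, -1.18, -0.46 and -0.59. At an unadjusted p below 0.05, 4 of 165 differed between corpus and caput (3.84% of all RNAs). Between corpus and cauda 5 had a lower log2 change in corpus and 14 a higher one (3.87% and 3.53% of all RNAs). For tRF_other the median was 0.14 in corpus and -0.74 in cauda. Of its 210 entries, 84 were among the 123 RNAs with a higher log2 change in corpus than in cauda (3.53% of all RNAs). Copies of a tRNA share reads, so these entries are no independent observations.

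The smallest p for corpus against cauda was that of tRF_other entries of 4 near-identical Arg-TCG tRNAs. tRNA-Arg-TCG-1 had 19.6, 26.2 and 21.6 CPM in WT and 30.7 and 40.8 CPM in KO in corpus, and 32.7, 35.7 and 32.3 CPM in WT and 16.4, 12.3 and 17.1 CPM in KO in cauda. Its difference of log2 changes was 1.81 ± 0.46 (adjusted p = 0.616). tRNA-Leu-TAA-1 followed with 1.58 ± 0.44. For corpus against caput the smallest p belonged to Gm23061, Gm24951 and Gm24276, miRNA entries that share 25, 43 and 36 bases with the mRNA of the translation elongation factor Eef1a1. Gm24951 had 0.466, 0.163 and 0.297 CPM in WT and 0.0431 and 0.0443 CPM in KO in corpus, and 0.0280 to 0.183 CPM in WT and 0.121 to 0.264 CPM in KO in caput (difference -3.65 ± 0.99, adjusted p = 0.999). Mir24-1, a miRNA of the miR-23, miR-27 and miR-24 cluster, had -1.44 ± 0.45 in corpus and 0.50 in caput, a difference of -1.94 ± 0.58 (adjusted p = 0.999).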

How the data were processed

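Small RNAs of corpus epididymis were compared between WT and KO. Per the study's methods, the authors trimmed reads with cutadapt, aligned them with bowtie2 to mm10 with added tRNA and rRNA sequences, and counted them with a modified tRAX; the submitters' processing notes also name UMI-tools, and versions are not given in the sources used here. The deposited values were raw counts per feature, with multiply matching sequences counted at each best match. Of 4890 rows, 393 had the same counts as another row. Rows were placed in classes by name and by GENCODE vM21 biotype.

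RNAs with at least 10 counts by edgeR's filterByExpr (total of 15 or more) were tested in 1 fit of all 17 tissue libraries by group, with TMM scaling and the quasi-likelihood test of edgeR 4.0.16, and p-values were adjusted by Benjamini-Hochberg over the 3488 RNAs. An RNA was called at an adjusted p below 0.05 and a log2 change over 1. DESeq2 1.42.0 was the alternative. Shares were compared by 2-sided exact permutation tests. Totals of 44999325 to 162251168 counts put 1 count at 0.00443 to 0.0232 CPM. The scripts were tested on simulated data. Corpus libraries of a group differed by more than sampling noise (134 to 2621 chi-square per degree of freedom).

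The members and lists were chosen with earlier results of these data known. Named RNAs were those of fixed rRNA, anticodon and marker lists, the 2 with the smallest p in each class among those without overlap, the 5 miRNA entries of highest CPM, the 5 with the smallest p in each test between segments and the 3 of smallest p among those DESeq2 called, the others of which were named after their values had been seen. Mir126a, Mir200a, Mir200c and other list members are examples, and Cys-GCA sums, single piRNA genes and rRNA entries were described after their values had been seen. The 5 miRNA genes of highest CPM with a mature sequence and no shared run were added after the data had been seen. Fluid and sperm counts were not used here.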

Additional observations from a re-analysis of the deposited data

How the results depend on the processing

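The number of RNAs called by edgeR was 0 under all alternatives run, and DESeq2 over the 17 tissue libraries called 24; the cause was not tested. Mir127 and Mir205 had negative log2 changes in every alternative, from -2.66 to -1.39 and from -2.77 to -1.40, with adjusted p from 0.0134 and 0.00851 to 0.999. Mir127 rested on 7 to 128 counts a library.

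Scaling moved many of the results. With factors from miRNA genes, chosen after seeing the data, 18 RNAs had an unadjusted p below 0.05 with lower values and 676 with higher values, and the class medians were -0.074 for miRNA, -0.35 for piRNA loci, -0.23 for 28S and -0.11 for 18S repeats, 0.95 for tRF_5', 0.71 for tRF_3', 1.05 for tRF_other, 0.86 for full-length tRNA, 1.17 for 5S repeats, 0.85 for snRNA, 0.90 for C/D snoRNA, 1.01 for H/ACA snoRNA and 0.83 for all RNAs; log2 changes turned to 0.23 for Mir10a, 0.13 for Mir10b, 0.42 for Mirlet7c-1 and 0.43 for Mirlet7c-2, by construction of factors that centre miRNAs. By library size alone 2 RNAs were higher, and the medians were -1.28 for miRNA, -1.32 for 18S repeats, -0.26 for tRF_5', -0.48 for tRF_3', -0.19 for tRF_other, -0.057 for 5S repeats, -0.38 for snRNA and -0.38 for all RNAs; 27 RNAs had a lower log2 change in corpus than in cauda and 1 a higher one than in caput, and log2 changes were -0.080 for the 5.8S rRNA, -0.034 for the mitochondrial small rRNA and -0.35 for Rny3. With tRFs, tRNAs and rsRNAs left out of the TMM factors, 52 RNAs were lower in corpus than in cauda, 74 lower and 17 higher than in caput, and 1 tRF sum was higher. DESeq2 and its size factors in edgeR each gave 9 higher in corpus than in caput, and DESeq2 gave 1 tRF sum lower and 1 higher.

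With the 5 corpus libraries alone, edgeR and DESeq2 each gave 3 tRF sums lower and 1 higher, and Rny3 had -0.044 in edgeR. A minimum count of 50 left 0 RNAs higher, 57 lower in corpus than in caput, and Rny3 at -0.063. Without a filter, 193 RNAs were higher in corpus than in cauda and 15 than in caput, Rny3 had -0.0037, and 2 tRF sums were lower and 3 higher. Summing tRFs before the fit left 5 RNAs higher, 40 lower in corpus than in cauda and 1 higher than in caput, with Rny3 at -0.038. The causes were not tested.

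KO minus WT shares, in percentage points, moved with the denominator. TMM-scaled totals gave 15.8 for 5S repeats, -0.0373 for tRF_3', 3.08 for snRNA, 0.323 for C/D snoRNA and 0.0305 for miRNA. Leaving out rRNA gave -1.75 for tRF_5', -2.51 for tRF_3', -0.253 for tRF_other, -0.00791 for full-length tRNA, 4.06 for snRNA, 0.545 for C/D snoRNA, -0.0109 for miRNA and -0.137 for piRNA loci. Keeping the single most counted entry per rRNA type and anticodon gave -1.04 for 28S and -0.172 for 18S repeats, -0.507 for tRF_5', -0.856 for tRF_3', 6.36 for snRNA, 0.701 for C/D snoRNA, 0.0287 for miRNA and -0.0896 for piRNA loci.

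WT and KO libraries shared replicate numbers, but the labels did not state that these pair them, and the main fit did not use them. Correlations of same-numbered deviations ran from -0.0331 to 0.723 over 8 pairs. Caput 1 (0.0288) correlated better with another number (0.251). Caput 2 and 3 (0.518 and 0.723) and all cauda pairs (0.272 or above) correlated best with their own number. The 2 KO corpus libraries deviate from their mean in opposite directions by construction. The corpus pairs (0.150 and -0.0331) therefore cannot decide, and pairing was not settled. With the replicate block over 17 libraries, 402 RNAs were lower (252 without it) and 79 higher, 358 were lower and 224 higher in corpus than in cauda, 263 lower and 9 higher than in caput, and 2 tRF sums were lower and 1 higher. With the replicate block on the 5 corpus libraries, 67 RNAs were higher, 1 tRF sum was lower and 3 were higher, and log2 changes were -0.0092 for the 5S rRNA, -0.080 for the 5.8S rRNA, -0.28 for the mitochondrial small rRNA and -0.0030 for Gm47301.

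Leaving out 1 library at a time, a lone KO library being assumed to vary like the other groups, gave 118 to 310 RNAs lower and 2 to 49 higher, 64 to 246 lower and 51 to 169 higher in corpus than in cauda, 45 to 175 lower and 4 to 51 higher than in caput, and 0 to 3 tRF sums lower and 0 to 2 higher. Medians ran from -0.46 to -0.047 for tRF_3', -1.37 to -0.81 for 18S repeats and -0.21 to 0.69 for full-length tRNA. Log2 changes ran from -0.16 to 0.61 for the 5.8S rRNA, -0.22 to 0.51 for the mitochondrial small rRNA, -0.090 to 0.22 for Rny3 and -1.03 to 0.11 for the 18S rRNA.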

Other observations

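The 338 tRNA gene locus entries and 21 mitochondrial tRNA entries held only even counts in the tissue table. 12 of the 24 RNAs that DESeq2 called came from miRNA genes, among them pairs of gene copies with nearly the same counts, such as Mir26a-1 and Mir26a-2 (320, 380 and 1570 counts beside 322, 380 and 1566 counts in WT).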
